A study of Mus musculus with 4 samples.

Results

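A list of 50 genes whose products drive entry into mitosis, build the spindle, separate the chromosomes or divide the cell was followed in mouse leukemia cells after IRF4 was put back. The members were chosen by name for their known roles in G2 and mitosis (G2/M), with earlier results of these data known. All 50 were found among the 55359 gene identifiers of the count table and among the 14637 genes that passed the filter on low counts. The cells were T8, a line established from 1 primary precursor B cell acute lymphoblastic leukemia of an *Irf4*-/- mouse, so both groups lack the endogenous transcription factor, descend from 1 tumor and share its somatic *Jak3* mutation. The line was established on irradiated ST2 stromal cells with interleukin-7 supernatant. The EV-RV group was transduced with a control retrovirus coding for GFP alone and the IRF4-RV group with a retrovirus coding for GFP plus IRF4. Bulk RNAseq was run on still viable cells 24 h after transduction, with 2 libraries per group that are described as biological replicates. Whether GFP+ cells were sorted for these libraries is not given in the sources used here. The comparison asks how the mitotic transcripts stood when IRF4 was re-expressed in cells that had transformed without it.

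Cells enter mitosis when cyclin B and CDK1 become active, a step released by the CDC25 phosphatases and reinforced by Polo-like and Aurora kinases. The transcripts of these genes are low in G1 and accumulate in G2 and M, in large part through the DREAM repressor complex and through the activators B-MYB and FOXM1. B-MYB with MuvB, and DREAM, contact a short promoter element named the cell cycle genes homology region, often found downstream of CCAAT boxes that bind NF-Y. In precursor B cells, interleukin-7 receptor signaling drives proliferation, and IRF4 is known for taking part in the exit from that proliferative stage toward light chain rearrangement.

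Promoters of 4 members are shown because these genes were among the members with the largest differences and hold both elements. Each runs 5′ to 3′ on the strand of the gene, from 250 bases before the annotated start site to 50 bases after it, taken from RefSeq on GRCm38.p6. Capitals mark TTTGAA, a core sequence of the cell cycle genes homology region, and CCAAT, each on either strand, so that the reverse complements TTCAAA and ATTGG are also in capitals.
Ckap2l, chr2:129297163-129297462, minus strand: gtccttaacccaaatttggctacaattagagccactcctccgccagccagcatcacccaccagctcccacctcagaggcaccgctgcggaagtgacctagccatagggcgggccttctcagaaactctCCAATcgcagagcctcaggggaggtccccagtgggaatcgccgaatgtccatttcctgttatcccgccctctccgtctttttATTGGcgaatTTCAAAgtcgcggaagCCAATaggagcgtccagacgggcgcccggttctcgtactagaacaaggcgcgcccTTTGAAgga
Cenpa, chr5:30666636-30666935, plus strand: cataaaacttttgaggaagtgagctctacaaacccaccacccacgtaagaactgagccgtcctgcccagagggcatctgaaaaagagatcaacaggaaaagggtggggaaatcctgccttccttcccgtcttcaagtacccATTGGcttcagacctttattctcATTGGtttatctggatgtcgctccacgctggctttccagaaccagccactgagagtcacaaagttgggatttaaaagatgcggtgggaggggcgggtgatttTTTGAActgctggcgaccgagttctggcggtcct
Kif23, chr9:61946750-61947049, minus strand: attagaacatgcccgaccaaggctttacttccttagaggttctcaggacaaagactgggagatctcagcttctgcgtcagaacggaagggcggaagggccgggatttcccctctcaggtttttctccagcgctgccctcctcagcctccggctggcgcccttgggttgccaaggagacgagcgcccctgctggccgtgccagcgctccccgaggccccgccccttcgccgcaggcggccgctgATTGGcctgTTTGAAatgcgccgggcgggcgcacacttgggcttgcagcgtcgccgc
Aurka, chr2:172370521-172370820, minus strand: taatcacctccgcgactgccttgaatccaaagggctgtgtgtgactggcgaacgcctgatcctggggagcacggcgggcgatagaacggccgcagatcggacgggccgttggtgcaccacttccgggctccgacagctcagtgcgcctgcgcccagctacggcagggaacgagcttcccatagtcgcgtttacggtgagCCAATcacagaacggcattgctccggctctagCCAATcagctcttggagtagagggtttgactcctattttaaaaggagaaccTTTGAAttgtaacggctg
In *Cenpa*, *Kif23* and *Aurka* the TTTGAA match began 16, 2 and 32 bases from the start site on the downstream side. In *Ckap2l* 1 match lay 41 bases downstream and the other 30 bases upstream. Of the 50 members, 41 were matched to a RefSeq promoter by symbol. *Aurkb*, *Cdc25c*, *Incenp*, *Dlgap5*, *Kif20a*, *Tpx2*, *Foxm1*, *Ccna2* and *Smc4* were not examined.

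TTTGAA stood in 30 of the 41 member promoters (73.2%), against 2577 of the 16518 promoters of the same length (15.6%). CCAAT stood in 31 member promoters (75.6%) and in 38.8% of all promoters, and both motifs together in 26 member promoters (63.4%) and in 6.41% of all. Matches of the 2 motifs may overlap at an end base, and each was counted on its own. Of the TTTGAA matches in member promoters, 76.9% lay within 50 bases of the start site, against 21.8% of the matches in all promoters. When TTCGAA was counted as well, 32 member promoters (78.0%) and 17.3% of all promoters held a match. The members with TTTGAA had a median log2 fold change of 0.23, and 12 of the 30 were called higher. Among the 11 members without it, the median was 0.17 and 4 were called higher. Of all genes tested, 16.0% were called higher (calls are defined below). Whether members with and without TTTGAA differ in their change was not tested. A match describes letters in the window and does not show that a factor was bound.

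Between 31230223 and 37817752 counts per library fell on genes. *Irf4* went from 8070 and 7600 counts in the EV-RV libraries to 95578 and 90693 in the IRF4-RV libraries, a log2 fold change of 3.46 (SE 0.0907, edgeR adjusted p = 1.14e-06), and the 2 groups lay far apart. Reads from the vector and from the disrupted locus cannot be told apart in gene counts, so the *Irf4* counts of the EV-RV libraries are no check of the genotype. Precursor B cell markers were present, with 29068 to 33036 counts of *Cd79a* per library and 11 of 12 markers tested, while *Rag1* had at most 1 count. Of these markers 1 was called higher (*Blnk*) and 4 lower (*Vpreb1*, *Igll1*, *Il7r* and *Dntt*). Over all genes tested 16.0% were called higher and 13.7% lower, and these shares stand beside each marker list here. Summed levels of 13 T and NK cell markers were 52.5 and 53.0 CPM with EV-RV and 39.6 and 38.3 CPM with IRF4-RV, with *Cd8a*, *Cd8b1*, *Ncr1* and *Gzmb* at 0. Those of 13 macrophage and granulocyte markers were 1.56 and 1.62 against 10.8 and 9.20 CPM, with *Adgre1*, *S100a8* and *S100a9* at 0. Only *Cd68*, *Mrc1* and *Ly6g* of this list were tested. Of these 3, 2 were called higher, and their log2 fold changes ran from 0.47 to 6.60. The other 10 markers held 6 to 18 counts together per library. Of 5 T and NK cell markers tested, 1 was called higher and 2 lower. The 12 stromal markers summed to 52.0 and 95.0 CPM with EV-RV and to 50.7 and 230.1 CPM with IRF4-RV, so the groups overlapped and replicate 2 was the higher in each. CPM here are counts scaled to a common library total after correction of the libraries by trimmed means (TMM). The part of these marker levels in the results on mitotic genes was not tested. Without IRF4-RV replicate 2, the library with the highest stromal sum, the members' median log2 fold change was 0.23, against 0.21 with all libraries. That fit leaves 1 IRF4-RV library and does not test the part of stromal signal. Calls that ended in that fit are named below.

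More of the mitotic genes rose than fell after IRF4 re-expression, and the rises were small. Of the 50 members, 19 were called higher with IRF4-RV (38%), where 16.0% of all genes tested were called higher, and 0 were called lower, where 13.7% of all genes were. A call is an adjusted p under 0.1 by the quasi-likelihood F test of edgeR, adjusted after Benjamini and Hochberg over all genes tested, and 29.7% of all genes were called in either direction. At an unadjusted p under 0.05 by the same F test, 20 members were higher and 0 lower. Of the 14637 genes tested, 2689 were higher and 2368 lower at that threshold. DESeq2 also called 20 members higher and 0 lower, where it called 1958 of the 14637 genes higher and 1647 lower. The median log2 fold change of the 50 members was 0.21, against 0.01 over all genes tested, and the members ranged from -0.20 (*Kif20b*) to 0.58 (*Ckap2l*). Both IRF4-RV libraries lay above both EV-RV libraries for 30 members, where 31.3% of all genes did so. Both lay below for 4 members (*Gtse1*, *Ccna2*, *Mad2l1* and *Spc25*), where 29.9% of all genes did so, and the groups overlapped for the other 16. In these bulk samples, a larger share of cells in G2/M and more of these transcripts per cell cannot be told apart. The paper also reports that T8 cells re-expressing IRF4 were lost over time, with apoptosis. The part of this cell loss in the values here was not tested.

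The changes of the mitotic genes were small beside those of other called genes. The median absolute log2 fold change of the 19 called members was 0.31, against 0.53 for the 4349 genes called in all. Only 3 members (6%) differed by more than 0.5 on the log2 scale, where 24.7% of all genes tested did, and 0 members differed by more than 1, where 8.65% of all genes did. The median standard error was 0.0866 for the members and 0.121 for all genes tested. Together the members took 0.595% and 0.533% of the counts in the EV-RV libraries, against 0.613% and 0.588% in the IRF4-RV libraries, so the groups overlapped in this unscaled share. After TMM scaling their summed levels were 5655 and 5281 CPM against 6290.5 and 6107 CPM, and the groups did not overlap.

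The calls depended on how the libraries were scaled. With scaling to library size only, 10 members were called higher and 3 lower (*Ccna2*, *Mad2l1* and *Spc25*), the members' median was 0.12 and that of all genes tested was -0.08, and 11.9% of all genes were called higher and 19.6% lower. The split of all calls moved from 53.8% higher with TMM to 37.8%. *Aurkb*, *Ccnb1*, *Foxm1*, *Kif2c*, *Ncapd2*, *Ndc80*, *Plk1*, *Prc1* and *Pttg1* were no longer called. Leaving out 1 library at a time gave 24 members higher and 0 lower without EV-RV replicate 1, 13 and 2 without EV-RV replicate 2 (*Kif20b* and *Smc4* lower), 8 and 2 without IRF4-RV replicate 1 (*Anln* and *Kif20b* lower), and 15 and 0 without IRF4-RV replicate 2. Over these 4 fits, between 12.03% and 13.11% of all genes tested were called higher. *Aurka*, *Cdc25b*, *Cdc25c*, *Cenpa*, *Ckap2l* and *Nusap1* were called higher in each of these fits and in every other alternative fit. On GRCm38, *Ckap2l* (ENSMUSG00000048327) lies at chr2:129268210-129297212, *Cenpa* (ENSMUSG00000029177) at chr5:30666777-30674830, *Nusap1* (ENSMUSG00000027306) at chr2:119618298-119651244, *Aurka* (ENSMUSG00000027496) at chr2:172356190-172370535, *Cdc25b* (ENSMUSG00000027330) at chr2:131186949-131198497 and *Cdc25c* on chromosome 18, all protein-coding, with counts over all their exons. Exons of *Ckap2l* overlap *Gm14024*, those of *Nusap1* overlap *Oip5*, those of *Cdc25b* overlap *Spef1*, those of *Cdc25c* overlap *Gm3550*, those of *Plk1* overlap *Gm44985*, those of *Prc1* overlap *Rccd1* and those of *Ube2c* overlap *Tnnc2*, each on the opposite strand, and those of *Foxm1* overlap *Gm44596* and *Tex52* on its own strand. Without the strand setting of the counting, these values are less certain than those of *Cenpa* and *Aurka*, which have no such overlap.

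**Figure D1:**
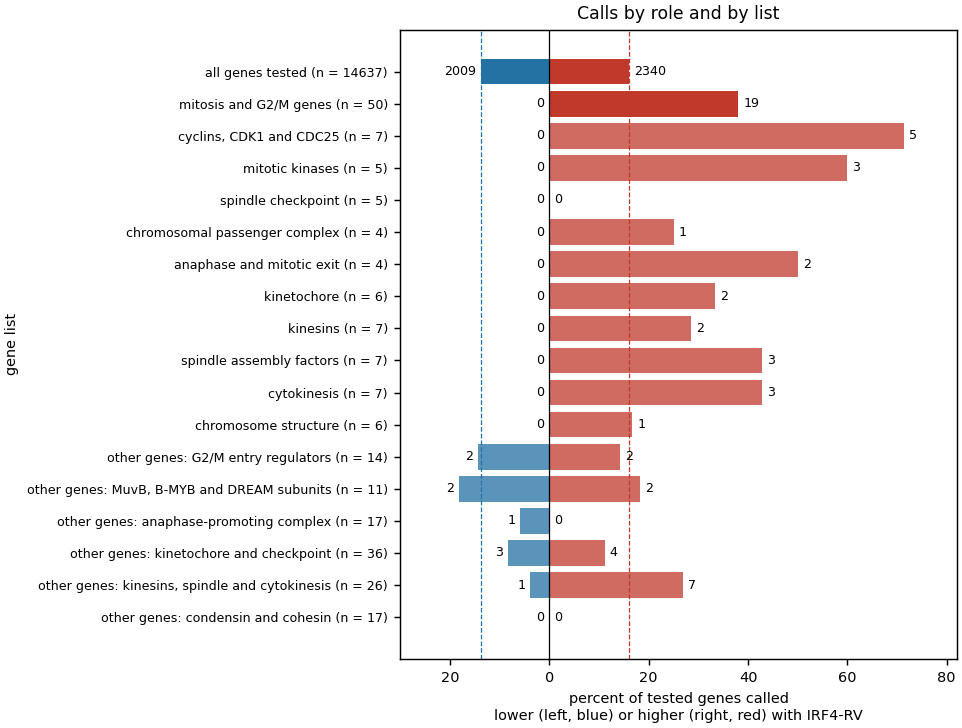
Percent of tested genes called lower (left, blue) or higher (right, red) with IRF4-RV at an edgeR adjusted p under 0.1, with the number of genes at each bar, for all genes tested, the 50 mitosis and G2/M genes, their roles and 6 lists of other genes of the same processes. Dashed lines mark the shares of all genes, 13.7% lower and 16.0% higher, and 0 members stand on the left side against 19 on the right.

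Among the cyclins, CDK1, the CDC25 phosphatases and FOXM1, 5 of 7 genes rose (71.4%), 0 fell and the median log2 fold change was 0.29. The role lists held 4 to 7 genes each. Their shares are given beside the 16.0% of all genes called higher as a description only. *Cdc25b*, which encodes a phosphatase that starts CDK1 activation, had 95.0 and 95.3 CPM with EV-RV and 127.3 and 123.3 CPM with IRF4-RV (log2 fold change 0.40, SE 0.0728, edgeR adjusted p = 0.00677). *Cdc25c*, the related phosphatase of the cyclin B and CDK1 feedback loop, had 13.3 and 14.3 against 18.01 and 19.6 CPM (0.45, SE 0.106, edgeR adjusted p = 0.0197). Both IRF4-RV libraries stood above both EV-RV libraries for each phosphatase, by more than the gap between replicates. *Ccnb2*, which encodes cyclin B2, had 154.4 and 161 CPM with EV-RV and 191.5 and 199.5 CPM with IRF4-RV (0.31, SE 0.0728, edgeR adjusted p = 0.0193). *Ccnb1*, the gene of the main mitotic cyclin, had 193.9 and 204.8 against 231.8 and 234.3 CPM (0.23, SE 0.0715, edgeR adjusted p = 0.0587). *Foxm1*, the transcription factor of G2/M genes, had 40.5 and 37.3 against 49.8 and 45.6 CPM (0.29, SE 0.0930, edgeR adjusted p = 0.0588). The groups were apart for all 3 genes, but *Ccnb1* and *Foxm1* were among the calls that library size scaling ended. The *Ccnb1* call also ended without EV-RV replicate 1 and without either IRF4-RV library, that of *Foxm1* without EV-RV replicate 2 or IRF4-RV replicate 1, and that of *Ccnb2* without IRF4-RV replicate 2.

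*Cdk1* and *Ccna2* did not pass the test. *Cdk1*, the kinase that cyclin B activates, had 151.5 and 163.3 CPM with EV-RV and 166.6 and 160.5 CPM with IRF4-RV, a log2 fold change of 0.06 (SE 0.0763, edgeR adjusted p = 0.66) that turned to -0.03 with library size scaling. *Ccna2*, whose cyclin A2 acts in S phase and up to early mitosis, had 225.5 and 241 against 219.8 and 220.9 CPM (-0.08, edgeR adjusted p = 0.471). For *Cdk1* the IRF4-RV libraries lay within and just above the EV-RV range, and for *Ccna2* they lay just below it. Whether the cyclin B genes differ from *Cdk1* or *Ccna2* in their response was not tested.

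Of the 5 mitotic kinases 3 rose (60%, against 16.0% of all genes called higher) and 0 fell, with a median log2 fold change of 0.23. *Aurka*, whose kinase acts at the spindle poles, had 77.7 and 88.4 CPM with EV-RV and 108.6 and 112.6 CPM with IRF4-RV (0.41, SE 0.0876, edgeR adjusted p = 0.0125). *Plk1*, the Polo-like kinase of centrosome maturation and mitotic entry, had 135.7 and 137.1 against 166.9 and 158.2 CPM (0.25, SE 0.0730, edgeR adjusted p = 0.0426). *Aurkb*, the kinase of the chromosomal passenger complex, had 143.5 and 147.3 against 169.9 and 170.3 CPM (0.23, SE 0.0706, edgeR adjusted p = 0.0554). The replicates of each group lay close together and the groups were separate for all 3 kinases. The calls for *Plk1* and *Aurkb* ended with library size scaling, and also without EV-RV replicate 1, IRF4-RV replicate 1 or IRF4-RV replicate 2. *Ttk* and *Bub1*, kinases of the spindle checkpoint, had log2 fold changes of 0.09 and 0.00.

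The spindle checkpoint, which holds cells before anaphase until every chromosome is attached, gave 0 calls. Where 16.0% of all genes were called higher, 0 of 5 genes does not set the checkpoint apart from all genes. Its 5 genes also had 0 at an unadjusted p under 0.05 in either direction and 0 calls by DESeq2. The highest was *Bub1b* at a log2 fold change of 0.17 (edgeR adjusted p = 0.191) and the lowest was *Mad2l1* at -0.11 (edgeR adjusted p = 0.34). *Bub3*, whose product brings the BUB kinases to kinetochores, stood at 0.13. In the chromosomal passenger complex *Aurkb* alone of 4 genes was called (25%, against 16.0% of all genes called higher). *Birc5*, which encodes survivin, had 108.9 and 120.7 CPM with EV-RV and 114.8 and 122.6 CPM with IRF4-RV (0.05, SE 0.0842, edgeR adjusted p = 0.737), so its groups overlapped. *Cdca8* (borealin) and *Incenp*, the other 2 subunits, stood at 0.12 and 0.10.

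**Figure D2:**
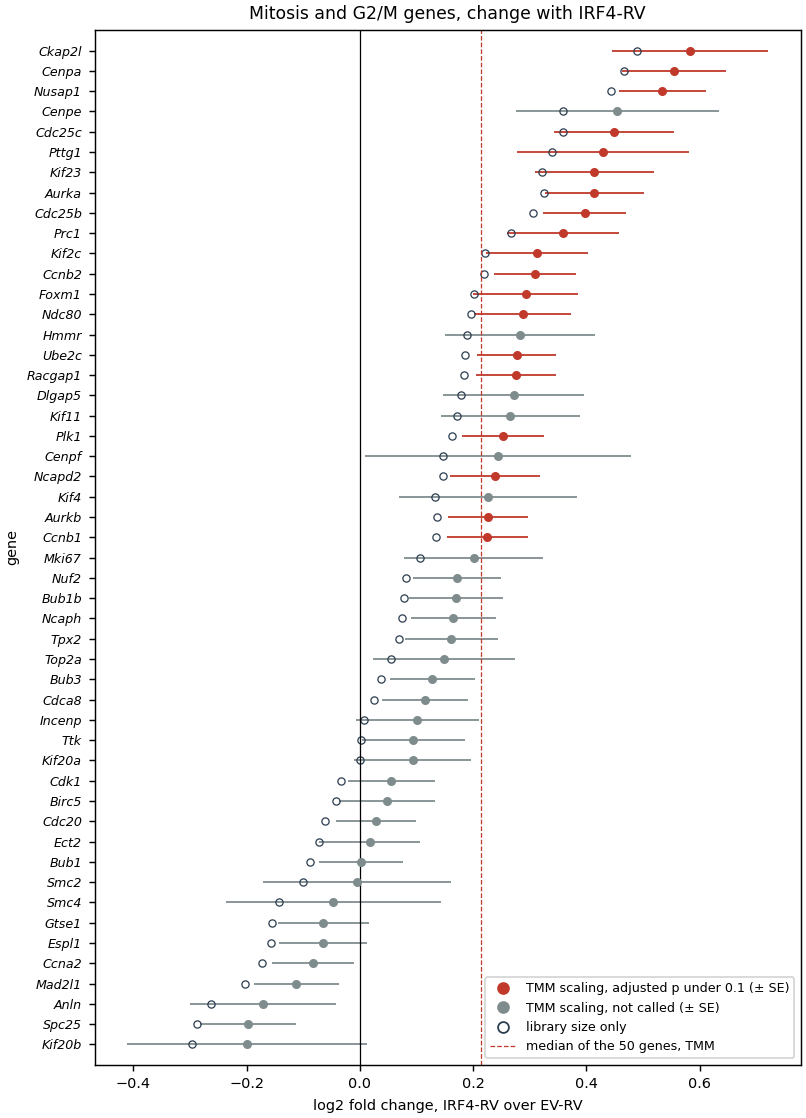
Log2 fold change of each of the 50 mitosis and G2/M genes (IRF4-RV minus EV-RV, edgeR with TMM, 2 libraries per group), ordered by size, with bars for the standard error. The 19 called genes all lie to the right of 0, and the values run from -0.20 for *Kif20b* to 0.58 for *Ckap2l*.

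Anaphase and mitotic exit were represented by 4 genes, of which 2 rose (50%, against 16.0% of all genes called higher). *Ube2c*, the ubiquitin-conjugating enzyme that works with the anaphase-promoting complex, rose by a log2 fold change of 0.28 (edgeR adjusted p = 0.0259), from 200.8 and 207.6 to 245 and 249.7 CPM, and its call ended without either IRF4-RV library. *Pttg1*, which encodes securin, the inhibitor of separase, had 13.5 and 16.9 CPM with EV-RV and 18.2 and 22.8 CPM with IRF4-RV (0.43, SE 0.152, edgeR adjusted p = 0.0831). The groups for *Pttg1* were separate by a gap smaller than the distance between replicates, replicate 2 was the higher in both, and the call ended without EV-RV replicate 1 and without IRF4-RV replicate 2. *Cdc20*, the activator of the anaphase-promoting complex, stood at 0.03 (edgeR adjusted p = 0.814), and *Espl1*, the separase gene itself, at -0.07 (edgeR adjusted p = 0.601).

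At the kinetochore 2 of 6 genes rose (33.3%, against 16.0% of all genes called higher) and 0 fell, with a median log2 fold change of 0.27. *Cenpa* encodes the histone H3 variant that marks centromeres. It had 196.5 and 227 CPM with EV-RV and 298.3 and 323.8 CPM with IRF4-RV (means 211.7 ± 21.6 and 311 ± 18.01, SD, n = 2), a log2 fold change of 0.55 (SE 0.0914, edgeR adjusted p = 0.00421). The lowest IRF4-RV library stood well above the highest EV-RV library. *Ndc80*, a microtubule-binding subunit of the outer kinetochore, rose from 32.5 and 31.4 to 39.4 and 38.7 CPM (0.29, edgeR adjusted p = 0.0471), and its call ended with library size scaling and without EV-RV replicate 2, IRF4-RV replicate 1 or IRF4-RV replicate 2. *Nuf2* and *Spc25*, subunits of the same NDC80 complex, stood at 0.17 (edgeR adjusted p = 0.161) and -0.20 (edgeR adjusted p = 0.145). For *Spc25* the libraries were tight, at 36.5 and 36.5 against 32.2 and 31.5 CPM, and both IRF4-RV libraries lay below. With library size scaling *Spc25* was called lower (-0.29, edgeR adjusted p = 0.0481). *Cenpe*, a kinetochore motor, had 20.6 and 13.8 against 25.2 and 21.9 CPM (0.45, edgeR adjusted p = 0.115), and DESeq2 called it higher (adjusted p = 0.0739). *Cenpf*, a large kinetochore protein gene, had 24.997 and 14.3 against 25.8 and 20.8 CPM, and the EV-RV replicates of both genes were farther apart than the group means.

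Of the 7 kinesins, *Kif23* and *Kif2c* rose (28.6%, against 16.0% of all genes called higher) and 0 fell. *Kif23* encodes the motor of centralspindlin, which organizes the midzone for cytokinesis, and had 51.7 and 44.3 CPM with EV-RV and 67.5 and 60.4 CPM with IRF4-RV (0.41, SE 0.105, edgeR adjusted p = 0.0264). *Kif2c*, whose product removes tubulin from microtubule ends at centromeres, had 53.0 and 47.6 against 64.5 and 60.4 CPM (0.31, SE 0.0907, edgeR adjusted p = 0.0429). The groups were apart for both, and both calls ended without EV-RV replicate 2 and without IRF4-RV replicate 1. *Kif11*, the motor that pushes spindle poles apart, and *Kif4*, a chromosome-bound motor, stood at 0.27 and 0.23 without passing the test. *Kif20a*, a motor of the midzone, stood at 0.09. *Kif20b*, the lowest member, had 36.2 and 22.4 against 28.3 and 22.8 CPM, so that its SE of 0.212 exceeded its log2 fold change of -0.20.

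Spindle assembly factors included the member with the largest change. *Ckap2l*, the gene of a spindle-associated protein, had 26.2 and 20.3 CPM with EV-RV and 37.4 and 32.2 CPM with IRF4-RV (means 23.2 ± 4.17 and 34.8 ± 3.63, SD, n = 2), a log2 fold change of 0.58 (SE 0.139, edgeR adjusted p = 0.0202). Its value ran from 0.41 to 0.77 when 1 library was left out. *Nusap1*, which encodes a protein that bundles spindle microtubules, had 101.5 and 94.9 against 145.2 and 139.3 CPM (0.53, SE 0.0772, edgeR adjusted p = 0.00229), the lowest adjusted p among the members. *Prc1*, the crosslinker of midzone microtubules, had 47.7 and 41.9 against 60.2 and 54.8 CPM (0.36, SE 0.0986, edgeR adjusted p = 0.0357). The groups did not overlap for any of these 3 genes, and the *Prc1* call ended without EV-RV replicate 2 and without IRF4-RV replicate 1. The remaining 4 factors of the 7 were not called: *Hmmr* at 0.28 (edgeR adjusted p = 0.178) and *Dlgap5* at 0.27 (edgeR adjusted p = 0.166), both microtubule-associated, *Tpx2*, the activator of Aurora A, at 0.16, and *Gtse1* at -0.06.

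Of the 7 cytokinesis genes, *Kif23*, *Prc1* and *Racgap1* rose (42.9%, against 16.0% of all genes called higher) and 0 fell. The median of the 7 was 0.09. *Racgap1*, which encodes the partner of KIF23 in centralspindlin, had 149.1 and 146.7 CPM with EV-RV and 180.1 and 177.9 CPM with IRF4-RV (0.28, SE 0.0702, edgeR adjusted p = 0.0269). Replicates lay close together, and the groups did not overlap. The *Racgap1* call ended without IRF4-RV replicate 1 and without IRF4-RV replicate 2. *Ect2*, the exchange factor that centralspindlin recruits, stood at 0.02 (edgeR adjusted p = 0.915), and *Anln*, the scaffold of the contractile ring, at -0.17 (edgeR adjusted p = 0.395).

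Chromosome structure genes gave 1 call among 6 (16.7%), near the 16.0% of all genes called higher. *Ncapd2*, a condensin I subunit, had 326.8 and 294.8 CPM with EV-RV and 375.7 and 358 CPM with IRF4-RV (0.24, SE 0.0799, edgeR adjusted p = 0.07), and exons of *Scarna10* overlap its own on the same strand. Its call ended without EV-RV replicate 2 and without either IRF4-RV library. *Top2a*, the topoisomerase that untangles sister chromatids, had 639.2 and 487 against 653 and 596 CPM (0.15, SE 0.125, edgeR adjusted p = 0.45). *Mki67*, the gene of the proliferation marker Ki-67, had 79.5 and 61.4 against 84.0 and 78.0 CPM (0.20, SE 0.123, edgeR adjusted p = 0.295). For both genes 1 EV-RV library was close to the IRF4-RV libraries and the other was well below. *Ncaph*, another condensin I subunit, stood at 0.16, and *Smc2* and *Smc4*, the ATPase core of condensin, at -0.01 and -0.05.

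**Figure D3:**
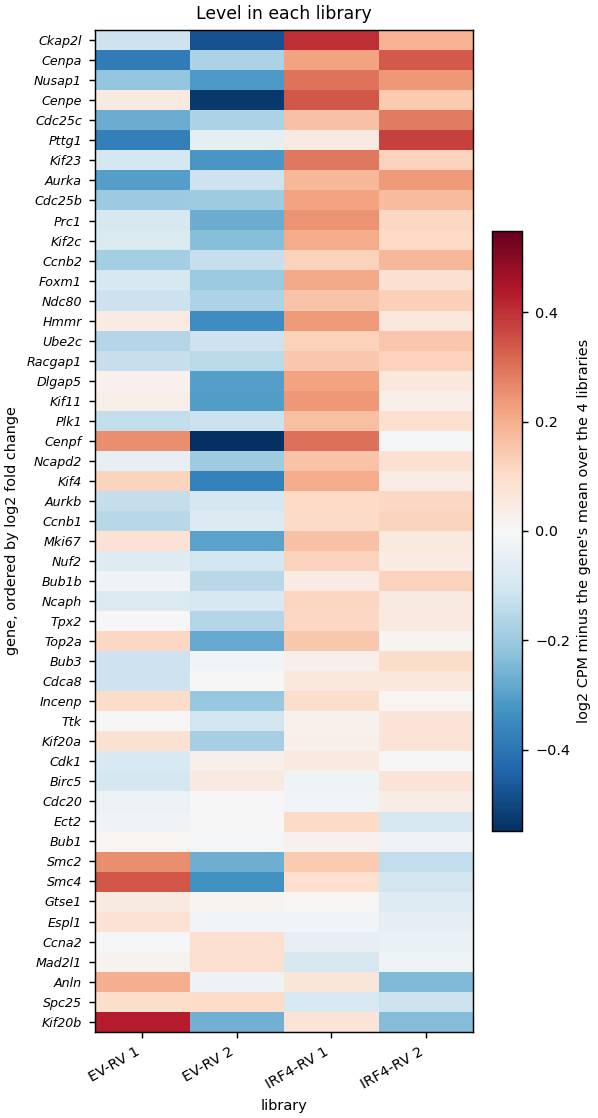
Level of the 50 mitosis and G2/M genes in each of the 4 libraries, as log2 CPM minus the mean of the gene over the 4 libraries (red above, blue below), ordered by log2 fold change. The upper rows are blue in both EV-RV libraries and red in both IRF4-RV libraries, while *Cenpf*, *Smc4*, *Smc2* and *Kif20b* differ mostly between EV-RV replicate 1 and EV-RV replicate 2.

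Levels of different members were compared only as CPM per kilobase of merged exons, and their order depends on this length. For *Cenpa* the merged exons hold 5860 bases and the longest coding transcript 1466, so on transcript length *Cenpa* would stand higher. On merged exons the highest level with EV-RV was that of *Cdc20*, 116.2 ± 1.81 CPM per kilobase (SD, n = 2). With IRF4-RV it was that of *Ccnb2*, which went from 103.0 ± 3.05 to 127.7 ± 3.70. *Ube2c* followed at 78.5 ± 1.85 with EV-RV and 95.1 ± 1.27 with IRF4-RV. *Top2a* at 62.5 ± 11.9 did not differ in EV-RV level from *Plk1* at 62.0 ± 0.479 or from *Ccna2* at 57.1 ± 2.69 beyond its spread, while both EV-RV libraries of *Plk1* lay above those of *Ccna2*. At the low end stood *Cenpf* at 1.27 ± 0.490, *Cenpe* at 1.99 ± 0.557 and *Cdc25c* at 2.80 ± 0.139 with EV-RV. The SDs of *Cenpf* and *Cenpe* were wide, but *Cenpe* lay above *Cenpf* in each library (with EV-RV 2.39 against 1.62 and 1.60 against 0.93). The median level over the 50 members was 19.98 and 18.33 CPM per kilobase in the EV-RV libraries and 21.66 and 19.36 in the IRF4-RV libraries, so that the groups overlapped on this measure.

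**Figure D4:**
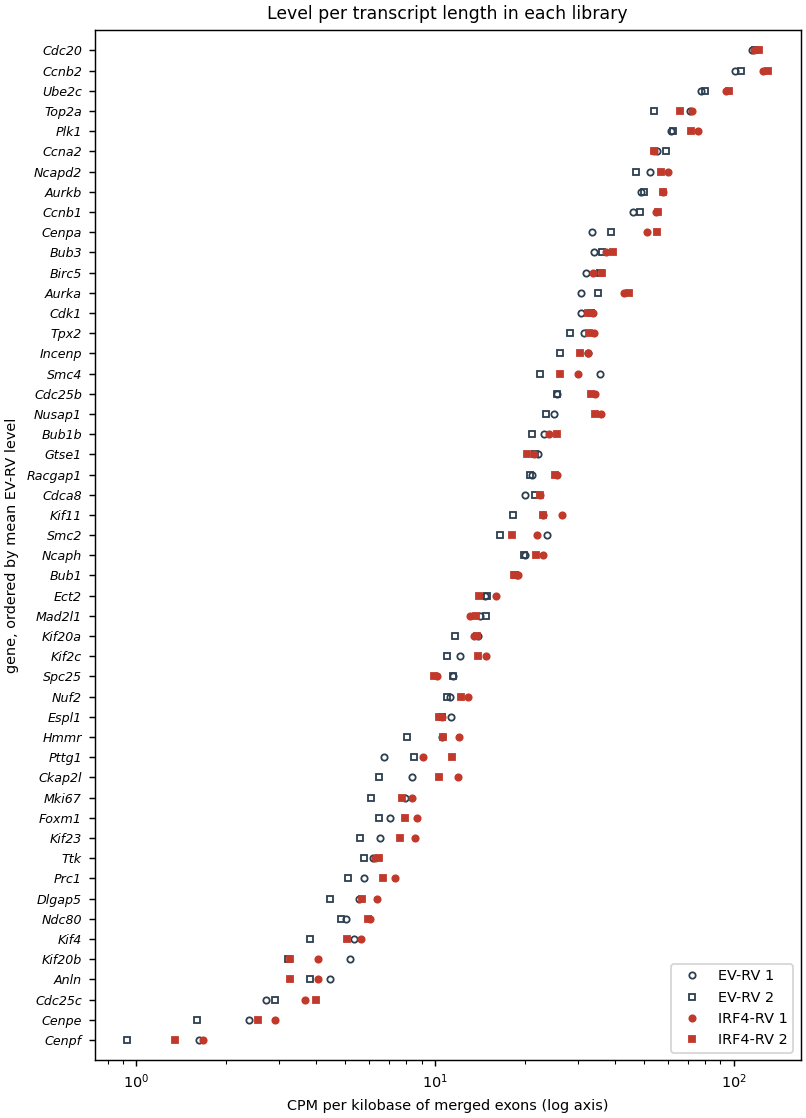
CPM per kilobase of merged exons (log axis) for the 50 mitosis and G2/M genes in each library, ordered by mean EV-RV level, with open symbols for EV-RV and filled symbols for IRF4-RV. Levels span from 1.27 for *Cenpf* to 116.2 for *Cdc20* in mean with EV-RV, and filled symbols lie to the right of open ones for 30 genes.

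Members also differed together between the libraries of 1 group. In replicate 2, 28 of the 50 members (56%) were lower than in replicate 1 in both groups, where 30.1% of all genes were, and 13 (26%) were higher in both, where 30.9% of all genes were. The median log2 difference, replicate 2 minus replicate 1, was -0.07 with EV-RV and -0.06 with IRF4-RV over the members, against 0.00697 and -0.00166 over all genes. The largest differences were those of *Cenpf* (-0.81 with EV-RV and -0.31 with IRF4-RV), *Kif20b* (-0.69 and -0.31), *Smc4* (-0.67 and -0.19), *Cenpe* (-0.58 and -0.20) and *Smc2* (-0.52 and -0.28). These genes encode long motor, kinetochore and condensin proteins. *Pttg1* (0.33 and 0.33) and *Cenpa* (0.21 and 0.12), both with short transcripts, went the other way.

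Across the 50 members, the replicate difference with EV-RV and that with IRF4-RV had a Pearson r of 0.81, against 0.25 across 14521 genes. With EV-RV the difference had an r of -0.66 with the length of the transcript over the members and of -0.07 over all genes. These values are across genes that share the same libraries, and genes are not independent replicates. The log2 fold change of the members had an r of -0.17 with transcript length. The part of this replicate pattern in the differences between the groups was not tested beyond the leave-out fits above. The members' median log2 fold change ran from 0.12 without EV-RV replicate 2 to 0.26 without EV-RV replicate 1.

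**Figure D5:**
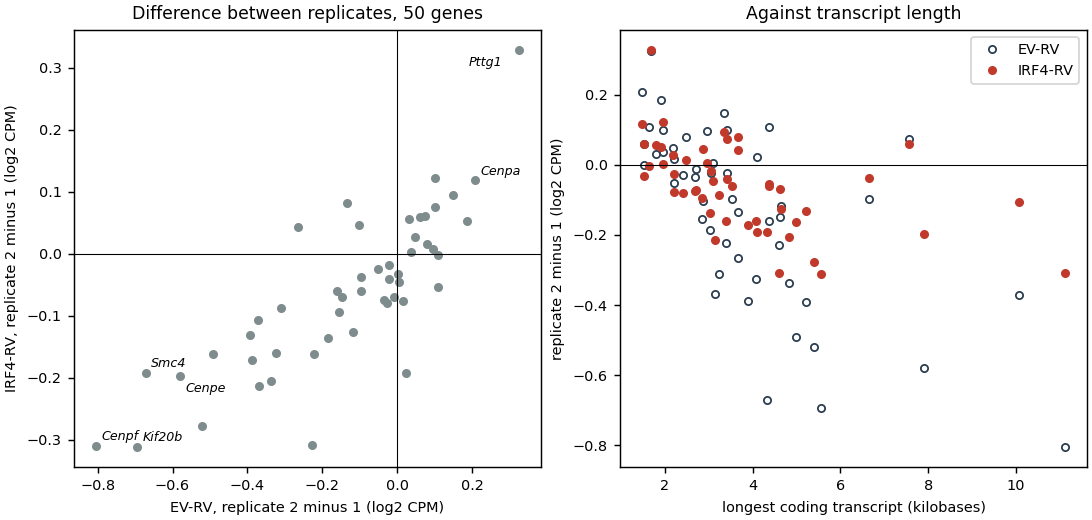
Log2 CPM of replicate 2 minus replicate 1 for the 50 mitosis and G2/M genes, on the left with EV-RV on the x axis and IRF4-RV on the y axis, and on the right for both groups against the length of the longest coding transcript in kilobases. Most points lie below 0 in both groups, 28 genes of 50, and the lowest EV-RV value is that of *Cenpf*, the gene with the longest transcript shown.

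Other genes of the same processes were called in both directions, at shares below those of all genes. Of 121 tested genes in 6 further lists, 15 were called higher (12.4%, against 16.0% of all genes) and 9 lower (7.44%, against 13.7%), with a median log2 fold change of -0.01. With library size scaling 25 of the 121 were lower, where 19.6% of all genes were. The closest to the members were 26 other kinesin, spindle and cytokinesis genes, of which 7 rose and 1 fell (median 0.12). The largest rise there was that of *Fam83d*, whose product brings casein kinase 1 to the spindle (0.50, edgeR adjusted p = 0.0137), and the fall was that of *Haus2*, an augmin subunit (-0.27, edgeR adjusted p = 0.0844), which DESeq2 did not call and which ended in 3 of the 4 leave-out fits. Among 36 other kinetochore and checkpoint genes, 4 rose and 3 fell, with *Cenpl*, an inner kinetochore gene, at 0.45 (edgeR adjusted p = 0.0102) and *Trip13*, the ATPase that remodels MAD2, at -0.54 (edgeR adjusted p = 0.00726). *Trip13* went from 66.1 and 78.6 CPM to 49.6 and 50.1 CPM, so the groups were separate.

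Regulators of mitotic entry outside the members gave 2 higher and 2 lower of 14 (14.3% each), near the 16.0% and 13.7% of all genes. *Mastl*, the Greatwall kinase that restrains the phosphatase opposing CDK1, rose from 8.90 and 9.13 CPM to 14.3 and 13.3 CPM (0.61, SE 0.113, edgeR adjusted p = 0.00687). *Pkmyt1*, a kinase that inhibits CDK1, fell from 21.4 and 24.3 to 17.3 and 17.2 CPM (-0.40, edgeR adjusted p = 0.0282). The other 2 called genes, chosen here after their values were seen, were *Nek2*, a centrosomal kinase (0.50, edgeR adjusted p = 0.00212), and *Wee1*, the second inhibitory kinase of CDK1 (-0.36, edgeR adjusted p = 0.0427). The *Wee1* call ended without EV-RV replicate 1 and without IRF4-RV replicate 2, and the *Pkmyt1* call without EV-RV replicate 2.

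The MuvB, B-MYB and DREAM subunits gave 2 higher and 2 lower of 11 (18.2% each), also near the shares of all genes, and 0 of either without IRF4-RV replicate 1. *Rbl2*, which encodes the pocket protein p130 of DREAM, rose from 27.7 and 25.5 to 37.4 and 34.2 CPM (0.43, edgeR adjusted p = 0.0168). *Tfdp1*, the E2F partner, fell from 289 and 309 to 244 and 247 CPM (-0.29, edgeR adjusted p = 0.0262), a call that ended without either IRF4-RV library. *Mybl2*, the B-MYB gene, stood at -0.03 (edgeR adjusted p = 0.837). Of 17 genes of the anaphase-promoting complex 0 rose and 1 fell (*Cdc16*, -0.27, edgeR adjusted p = 0.0511, lost in 3 of the 4 leave-out fits), with 2 higher at an unadjusted p under 0.05 and 1 called higher by DESeq2. Library size scaling raised the number lower to 7, where 19.6% of all genes were called lower. Of 17 other condensin and cohesin genes 0 were called in either direction by edgeR or by DESeq2, with 3 higher and 0 lower at an unadjusted p under 0.05. In the main fit 16.0% of all genes were called higher and 13.7% lower. Whether these 2 lists differ from all genes was not tested.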

How the data were processed

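The authors deposited raw read counts per gene, whole numbers without normalization, for 2 EV-RV and 2 IRF4-RV libraries of T8 cells. Per the labels, libraries were made with NEBNext Ultra II, and the submitters' processing notes name FastQC 0.11.2, STAR 2.4.0j, featureCounts, DESeq2 1.22.1 and GRCm38. Settings for strand and multi-mapped reads are not given in the sources used here, so overlapping genes and genes with pseudogene copies (*Ccnb1*, *Ccnb2*, *Kif4*) are uncertain. Of 55359 identifiers, 52083 were matched to GENCODE M21. Titles and tissue give the cells as T8 (a protocol field mentions T11).

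Genes passing filterByExpr were tested with edgeR 4.0.16 in R 4.3.3 (TMM factors from 0.9635 to 1.054, quasi-likelihood F test, Benjamini-Hochberg, FDR 0.1, no replicate block). CPM used TMM-scaled totals, and 3 counts equal 0.0824 to 0.0952 CPM. Members and lists were chosen with earlier results of these data known. Members given with every library value were the 12 largest and 5 smallest called changes and 8 named genes, and others were added after their values were seen. Other genes named were the largest called rise and fall of each list, with *Nek2*, *Wee1* and *Mybl2* added after their values were seen. The steps were also run on simulated counts. There, many genes changed by 0.5 on the log2 scale were missed, and unchanged genes took a larger part of the calls than the FDR of 0.1. Far fewer genes were changed in the simulated counts than were called here, so these rates do not carry over to the data. Alternatives were DESeq2 1.42.0, other scalings and filters, the replicate block, FDR 0.05 and each library left out. The p-values measure only the spread between these libraries.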

Additional observations from a re-analysis of the deposited data

How the results depend on the processing

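With 2 libraries per group, counts of calls moved with single libraries. Members called higher were 19, against 14 at FDR 0.05, 10 with library size only, 32 with a replicate block and 8 to 24 with 1 library left out. With the block, 2 of the 5 spindle checkpoint genes were called higher (*Bub1b* and *Bub3*). Over all genes tested, 16.0% were called higher and 13.7% lower in the main fit, against 11.9% and 19.6% with library size only. With the block these shares were 23.4% and 20.3%. At FDR 0.05, 1834 of the 14637 genes were called higher and 1513 lower. Members called lower were 0, against 3 with library size only, 1 with the block and 0 to 2 with 1 library left out. The members' median was 0.12 with library size only and 0.12 to 0.26 with 1 library left out. Other genes of the same processes called higher (15) were 33 with the block and 9 to 16 with 1 library left out. Those called lower (9) were 25 with library size only, 24 with the block, 5 at FDR 0.05 and 3 to 11 with 1 library left out. All genes called (4349) ranged from 3347 at FDR 0.05 to 6394 with the block. The block used replicate numbers that do not show shared cultures. Deviations of same-numbered libraries had r = 0.26 across 14637 genes, while the replicate differences of the 2 groups had r = 0.81 across the 50 members. The main fit did not use the numbers as pairs.

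Uncalled members changed sign. With library size only, *Cdk1* stood at -0.034, *Cdc20* at -0.062, *Bub1* at -0.089, *Birc5* at -0.042, *Kif20a* at -0.00057 and *Ect2* at -0.073. *Bub1* was -0.0035 with DESeq2 size factors in edgeR and -0.013 with the stricter filter, and *Smc2* was 0.01 with the block. With 1 library left out, *Cdk1* ran from -0.0063 to 0.11, *Bub1* from -0.039 to 0.027, *Birc5* from -0.033 to 0.13, *Incenp* from -0.043 to 0.26, *Top2a* from -0.032 to 0.35, *Cenpf* from -0.10 to 0.70, *Kif20a* from -0.032 to 0.22, *Kif20b* from -0.50 to 0.18, *Ect2* from -0.10 to 0.12, *Smc2* from -0.24 to 0.27 and *Smc4* from -0.34 to 0.32. In those fits the lone library of a group was assumed to vary like the other group. The 19 calls were kept with DESeq2, DESeq2 size factors, no filter, the stricter filter and the block. The cause of the other changes was not tested.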
